A study of Mus musculus with 6 samples.

Results

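A set of 10 genes that fast-twitch skeletal muscle fibres use for contraction were followed on 6 arrays of mouse lung RNA. They were Acta1, Tnnc2, Tnni2, Tnnt3, Myh1, Mylpf, Actn3, Myoz1, Atp2a1 and Ckm. Every probe set whose only gene symbol in the platform annotation was in this set of 10 was taken, which gave 15 of the 12488 probe sets on the array, with 2 probe sets for 5 of the genes. These are 10 of the 8251 genes that the array measures with a probe set of 1 symbol. The genes were chosen by their levels on the C57, DBA and ICR arrays, as differences between strains seen in these same values. Their strain values are therefore given as a description, with no test. The arrays were Affymetrix arrays of total lung RNA from mice labelled C57, DBA and ICR, with 1 control and 1 smoked array for each strain. Exposure to cigarette smoke lasted 4 weeks, at 3 cigarettes a day and 5 days a week, and controls carry the labels control and normal lung. Each title numbers its sample as mouse 1. Whether an array held 1 mouse or a pool, and the age and sex of the mice, are not stated in the labels. No genetic modification is named in any label. The labels give no substrain, and ICR is an outbred stock, so an ICR array stands for its own mouse or mice only.

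A skeletal muscle fibre shortens when calcium released inside the cell binds troponin on the thin filament and lets myosin heads pull on actin. Fast fibres and slow fibres make different forms of many of these proteins, and fast fibres also hold fast forms of the calcium pump and high levels of enzymes that buffer ATP. Lung tissue itself holds smooth muscle in airways and vessels, and in mice heart-like muscle in the walls of the pulmonary veins, but no skeletal muscle fibres. Skeletal muscle adjoins the lung in the chest wall, the diaphragm and, in mice, the wall of the oesophagus. In bulk RNA, fewer cells of a type and less RNA per cell cannot be told apart.

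The lung identity of all 6 arrays was checked on 6 measured lung epithelium genes. Sftpc, the surfactant protein of alveolar type II cells, read 7184 to 10579, and Scgb1a1, the main secretion of club cells, read 7572 to 10324. Sftpd was the exception, at 4.74 to 24.5. Median deposited intensity was 52.5 to 85.0 on 5 arrays and 26.0 on the ICR smoked array, the dimmest. Levels were therefore compared as log2 of the intensity plus 8.05, after quantile normalization between arrays, and deposited intensities are printed beside them.

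RefSeq start regions of the GRCm38.p6 build were given for 6 of the 10 genes: Acta1, Tnnc2, Myh1, Mylpf, Atp2a1 and Ckm. Those of the 3 genes with the largest DBA to C57 differences among the 6 are shown, since the strain results turn most on them. Each is the 250 bases before the annotated start, read on the gene's own strand. Capitals mark matches on either strand to the E-box CANNTG, bound by MyoD-type factors, to the M-CAT element CATTCC, bound by TEAD factors, to the MEF2 site and to the CArG box, bound by serum response factor.
Acta1, chr8:123894776-123895025, minus strand: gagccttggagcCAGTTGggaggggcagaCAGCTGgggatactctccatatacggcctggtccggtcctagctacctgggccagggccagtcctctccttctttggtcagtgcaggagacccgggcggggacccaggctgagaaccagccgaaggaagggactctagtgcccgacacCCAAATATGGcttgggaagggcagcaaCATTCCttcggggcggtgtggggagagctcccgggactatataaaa
Myh1, chr11:67199852-67200101, plus strand: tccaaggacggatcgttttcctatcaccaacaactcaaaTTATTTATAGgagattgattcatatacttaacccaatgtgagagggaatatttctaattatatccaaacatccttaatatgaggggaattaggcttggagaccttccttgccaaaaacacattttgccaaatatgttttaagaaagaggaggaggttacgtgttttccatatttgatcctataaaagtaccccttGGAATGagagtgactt
Tnnc2, chr2:164779735-164779984, minus strand: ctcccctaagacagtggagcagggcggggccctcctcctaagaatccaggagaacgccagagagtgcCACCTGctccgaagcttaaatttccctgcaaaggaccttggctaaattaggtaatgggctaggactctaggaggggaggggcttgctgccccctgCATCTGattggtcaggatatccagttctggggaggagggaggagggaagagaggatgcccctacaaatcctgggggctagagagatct
The Acta1 window held 2 E-boxes, a CArG box that began 73 bases before the start and an M-CAT element that began 46 bases before it. The Myh1 window held a MEF2 site 211 bases before the start and an M-CAT element, read on the opposite strand, 16 bases before it. In the Tnnc2 window only E-boxes were found, at 183 and 88 bases before the start. Of the 6 windows, 5 held the E-box CANNTG, which 66.2% of 32851 RefSeq start windows of the same length also held. The narrower E-box CAGCTG, which CANNTG includes, was in 4 of the 6 (13% of all windows). The M-CAT element was in 2 (12.6%), the MEF2 site in 1 (2.92%) and the CArG box in 1 (1.47%). A match describes the letters in the window and was not tested as a site.

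Fast muscle message stood far higher on the C57 arrays than on those of DBA and ICR. Taking for each gene its brighter probe set, all 10 genes read higher on both C57 arrays than on either DBA array and than on either ICR array. Over all 12422 probe sets other than controls, 26.3% lay above DBA and 23.4% above ICR in this way. The 10 genes were 10 of 10 in each comparison with no scaling between arrays, where 10.5% of all probe sets lay above DBA and 51.1% above ICR, and with scaling to a common median (38.5% and 24.4%). All 10 were also at least 2-fold lower in DBA than in C57 and in ICR than in C57, as 1.88% and 2.67% of all probe sets were. The members were chosen with these contrasts known, so nothing is read from these counts. Their median difference was log2 -2.17 for DBA minus C57 and -3.23 for ICR minus C57, where the medians over all 8251 genes were -0.039 and -0.019. Ranked among all probe sets of an array, the median of the 10 genes lay at percentile 80.6 on C57 control, 73.6 on C57 smoked, 50.6 on DBA control, 35.4 on DBA smoked, 30.9 on ICR control and 33.5 on ICR smoked. A sign of RNA quality moved with this step: the 3' to 5' ratio of beta-actin was 2.75 and 2.51 on the C57 arrays, 1.46 and 1.66 on the DBA arrays and 1.63 on ICR control, and that of Gapdh 1.69 and 1.38, 0.967 and 0.952, and 1.11. The ICR smoked array, with 4.75 and 2.39, had the highest ratios and low fast muscle signals. The part of RNA quality in the result was not tested.

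**Figure D1:**
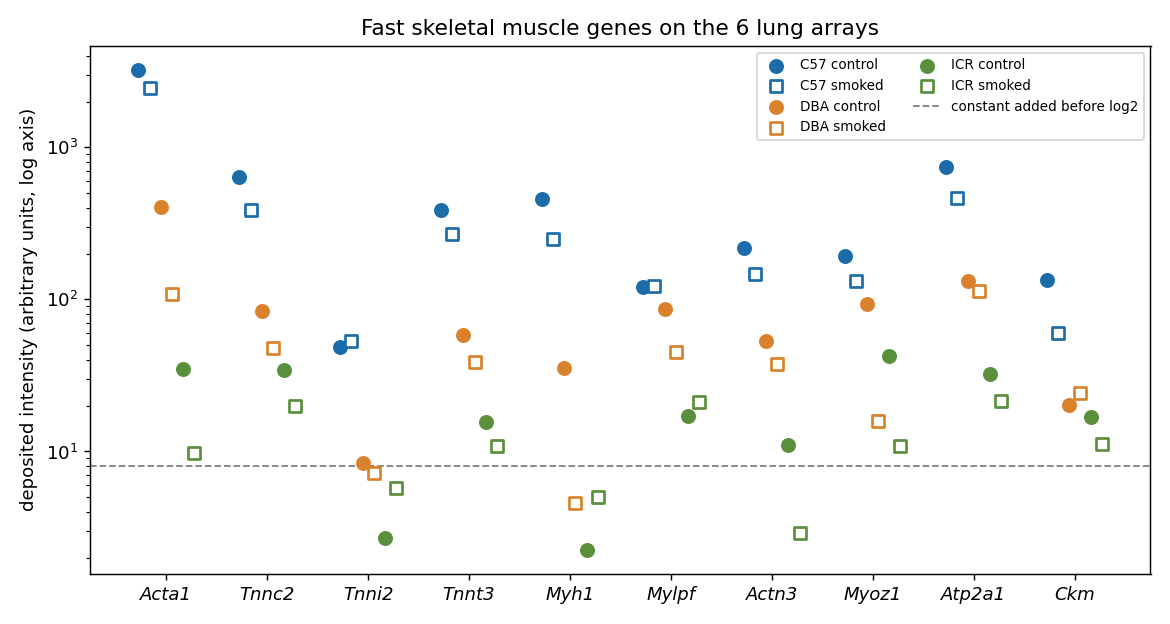
Deposited intensity (arbitrary units, log axis) of the brighter probe set of each of the 10 fast muscle genes, with a filled circle for the control array and an open square for the smoked array of each strain, and a dashed line at 8.05, the constant added before taking logs. Both C57 points lie above all other points at every gene, and 3 genes fall below the line on at least 1 array: Tnni2, Myh1 and Actn3.

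Among the thin filament genes, Acta1 spanned the widest range. Acta1 encodes skeletal muscle alpha-actin, the track on which myosin pulls, and its deposited intensity was 3232 on C57 control, 2468 on C57 smoked, 404 on DBA control, 108 on DBA smoked, 34.7 on ICR control and 9.75 on ICR smoked. The arrays fell in that order, with no overlap between strains, and Acta1 moved from percentile 99.2 of all probe sets on C57 control to 31.8 on ICR smoked. After normalization the means of the strains were log2 11.25, 7.41 and 5.15 for C57, DBA and ICR, so that C57 was 14.3-fold above DBA and 68.5-fold above ICR. Actins are closely alike in sequence, so a share of other actins in the probe set's signal is uncertain; the heart actin Actc1 read 2193 and 1882 in C57, 1222 and 1978 in DBA, and 1710 and 702 in ICR. The DBA difference was log2 -4.63 without DBA control and -3.05 without DBA smoked. The ICR value rests on weak signals, and over the alternatives the ICR to C57 difference ran from log2 -6.68 to -5.35.

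The 3 troponin genes, for the calcium switch of the thin filament, repeated the step from C57 to the other strains. Tnnc2, the fast calcium-binding subunit, read 640 (control) and 385 (smoked) in C57, 84.1 and 48.0 in DBA, and 34.2 and 19.8 in ICR, with the control array first here and below. Normalized, C57 was 7.75-fold above DBA and 8.94-fold above ICR, and DBA and ICR overlapped. The other Tnnc2 probe set read 1.52 to 4.61 on all 6 arrays, below the added constant everywhere, and showed no such step (log2 0.16 for DBA and 0.12 for ICR against C57). Tnnt3, the fast subunit that ties troponin to tropomyosin, read 387 and 269 in C57, 58.5 and 38.7 in DBA, and 15.7 and 10.9 in ICR. Its strains did not overlap, and C57 was 6.55-fold above DBA and 10.1-fold above ICR. Tnni2, the fast inhibitory subunit, was the dimmest of the brighter probe sets on the C57 arrays, at 48.5 and 53.2. It read 8.45 and 7.24 in DBA and 2.71 and 5.75 in ICR, so that 3 of its 4 values outside C57 lay below the constant. The fitted folds of 3.97 and 3.73 depend on that constant.

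Of the thick filament genes, Myh1 had a step as large as that of Acta1 between C57 and DBA. Myh1, the myosin heavy chain of fast type IIx fibres, read 457 and 248 in C57, 35.6 and 4.61 in DBA, and 2.26 and 5.01 in ICR. DBA control stood between C57 and the 3 remaining arrays, all of which were below the constant. The normalized differences were log2 -3.85 for DBA and -4.41 for ICR against C57, with a span of -4.70 to -2.78 for DBA and of -5.54 to -3.06 for ICR under other settings. They were -4.69 without DBA control and -3.01 without DBA smoked, and -3.40 without ICR control and -5.41 without ICR smoked. Myosin heavy chain genes lie in a cluster of closely alike sequences, so the share of related transcripts in this signal is uncertain. Mylpf, the regulatory light chain of fast myosin, had the smallest step: it read 120 and 123 in C57, 86.2 and 45.3 in DBA, and 17.0 and 21.1 in ICR. C57 was 2.12-fold above DBA and 3.02-fold above ICR. The DBA difference of log2 -1.08 was -1.89 without DBA control and -0.28 without DBA smoked, and the ICR difference of -1.60 was -0.84 without ICR control and -2.35 without ICR smoked. The other Mylpf probe set, at 25.0 and 12.6 in C57 and 0.406 to 4.65 elsewhere, showed the same order of strains at a lower signal.

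The Z-disc genes differed in how DBA and ICR compared. Actn3, the alpha-actinin that anchors actin filaments in fast fibres, read 218 and 148 in C57, 53.6 and 37.8 in DBA, and 11.0 and 2.90 in ICR, with no overlap between strains. It was 3.98-fold higher in C57 than in DBA and 9.87-fold higher than in ICR. Its other probe set had a smaller step, with 59.5 and 48.1 in C57, 44.9 and 50.2 in DBA, and 9.15 and 15.7 in ICR. Myoz1, a Z-disc protein of fast fibres that binds calcineurin, read 193 and 132 in C57, 93.3 and 15.8 in DBA, and 42.2 and 10.8 in ICR. The control arrays of DBA and ICR both stood above their smoked arrays here, so that these strains overlapped and had nearly equal means (log2 5.31 and 5.33). C57 was 3.68-fold above DBA and 3.63-fold above ICR. The DBA difference of log2 -1.88 was -2.67 without DBA control and -1.09 without DBA smoked.

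Of the genes for calcium uptake and energy supply, Atp2a1 had the step in both probe sets and Ckm in 1 of its 2. Atp2a1, the calcium pump of the fast fibre's sarcoplasmic reticulum, read 738 and 468 in C57, 132 and 113 in DBA, and 32.5 and 21.5 in ICR. Its strains did not overlap, and C57 was 5.08-fold above DBA and 10.4-fold above ICR. The other Atp2a1 probe set followed it closely over the 6 arrays (Pearson r = 0.971), with differences of log2 -2.91 and -3.22. For Ckm, the muscle creatine kinase that regenerates ATP from phosphocreatine, the brighter probe set read 134 and 60.5 in C57, 20.3 and 24.4 in DBA, and 16.9 and 11.2 in ICR. The other Ckm probe set went the opposite way, at 5.92 and 10.8 in C57, 17.6 and 8.68 in DBA, and 27.1 and 14.3 in ICR. The difference of Ckm between C57 and the other strains thus holds for the brighter probe set only. After normalization, 13 of all 15 probe sets lay above DBA and 13 above ICR on both C57 arrays. The exceptions were the dimmer Ckm and Tnnc2 probe sets. In deposited intensity the other Actn3 probe set overlapped with DBA too, at 48.1 on C57 smoked and 50.2 on DBA smoked.

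DBA and ICR were harder to order. In 4 of the 10 genes (Acta1, Tnnt3, Actn3 and Atp2a1) both DBA arrays stood above both ICR arrays, against 20.8% of all probe sets. These 4 were thus ordered C57, DBA, ICR with no overlap, as were 3.41% of all probe sets. The count of DBA above ICR was 8 with no scaling between arrays (61.5% of all probe sets) and 3 with scaling to a common median (16.6%). In 3 genes (Acta1, Actn3 and Atp2a1) ICR was at least 2-fold below DBA (2.83% of all probe sets). In the other probe sets of Actn3 and Atp2a1, which also passed the filter, DBA and ICR overlapped. Their differences, ICR minus DBA, were log2 -0.62 and -0.31. The median difference, ICR minus DBA, was log2 -0.53 (0.019 over all genes). It was -1.09 without the DBA smoked array and turned to 0.12 without the DBA control array and to 0.26 without the ICR control array. The median position of the genes on DBA smoked, ICR control and ICR smoked was at percentile 30.9 to 35.4, and that on DBA control at 50.6.

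No smoke effect was called on these genes. In the limma fit of the smoke effect over the 3 strains, 10 of the 15 probe sets, from 8 genes, passed the filter on low signal and 0 were called at an adjusted p below 0.05, while 3 had an unadjusted p below 0.05. Over all 7453 probe sets tested, 0.0403% were called higher and 0% lower, and 122 had an unadjusted p below 0.05. The 10 probe sets do not cover all members, since no probe set of Tnni2 or Ckm passed. Several passed the filter mainly through their C57 signals (Myh1, Actn3 and Myoz1 among them), so that the DBA and ICR pairs in their test rest on weak signals. A count of 0 here does not show that smoke left these genes unchanged. The median over the 10 genes, smoked minus control, was log2 -0.39, and by strain -0.47 in C57, -0.85 in DBA and 0.24 in ICR, against -0.024, 0.026 and 0.013 over all genes.

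**Figure D2:**
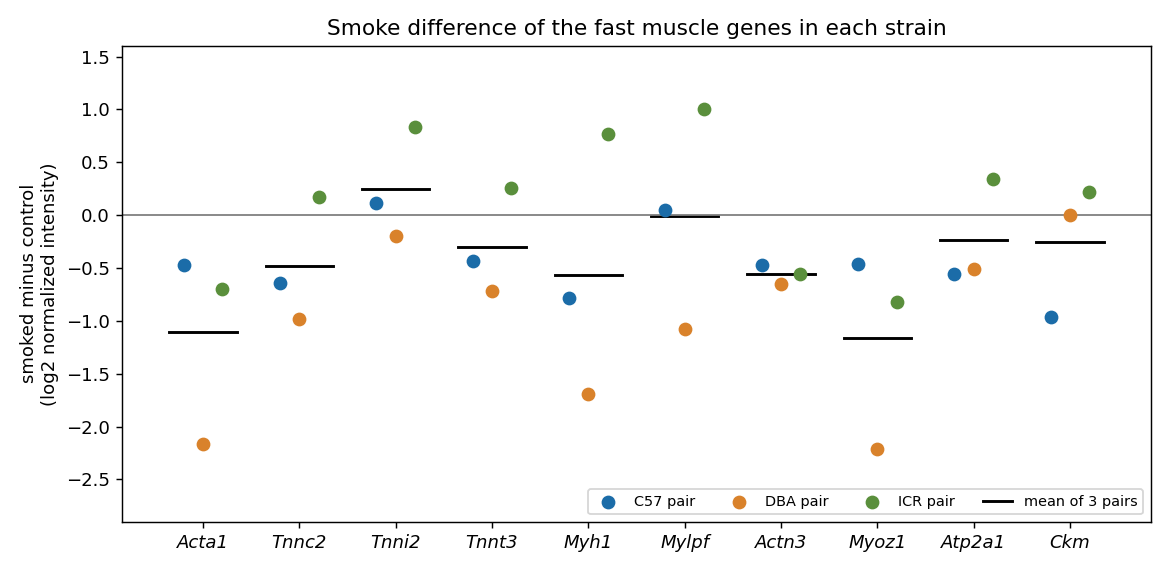
Smoked minus control difference (log2 normalized intensity) of each fast muscle gene in the C57, DBA and ICR pair, with a black bar at the mean of the 3 pairs. The DBA points reach -2.17 for Acta1 and -2.21 for Myoz1, and 7 of the 10 ICR points lie above 0.

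Acta1 read lower on the smoked array in every strain, by log2 -0.47 in C57, -2.17 in DBA and -0.70 in ICR (mean -1.11, SE 0.31, unadjusted p = 0.00601, adjusted p = 1 by limma). Myoz1 had a like pattern, at -0.46, -2.21 and -0.82 (mean -1.16, SE 0.34, unadjusted p = 0.00768, adjusted p = 1 by limma). Actn3 had the smallest spread between strains, at -0.47, -0.65 and -0.56 (mean -0.56, SE 0.24, unadjusted p = 0.0469, adjusted p = 1 by limma). Its other probe set, which also passed the filter, had the opposite mean, at -0.25, -0.12 and 1.19 (mean 0.27, SE 0.33, unadjusted p = 0.435 by limma). These were the 3 of 10 genes with lower values in all 3 strains, which 9.44% of all probe sets had, and none of them passed the adjusted test. Myoz1 and Actn3 passed the filter mainly through their C57 signals, so their p-values rest in part on weak DBA and ICR signals. For Acta1 and Myoz1 the DBA pair set most of the size: without it the Acta1 mean was -0.59 and the Myoz1 mean -0.64.

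The pairs differed from each other. In C57, 8 of 10 genes read lower on the smoked array (52% of all probe sets did), with Ckm at -0.96 and Myh1 at -0.78 as the largest differences, and Tnni2 (0.11) and Mylpf (0.05) read slightly higher. In DBA all 10 read lower (47.8% of all probe sets), or 9 with no scaling between arrays, though Ckm by a difference that rounds to 0, and 4 were at least 2-fold lower: Myoz1, Acta1, Myh1 (-1.69) and Mylpf (-1.08). Such a difference was seen at 2.64% of all probe sets in that pair. In ICR only 3 of 10 read lower (49.1% of all probe sets), or 7 with no scaling and 2 with scaling to a common median. Mylpf was at least 2-fold higher there, as 3.89% of all probe sets were, and the ICR signals of these genes were weak. The other Mylpf probe set was at -0.43 in DBA and 0 in ICR. Whether the smoke differences of the strains differed was not tested. Markers of other muscle moved with these pairs too. On the C57 smoked array all 8 smooth muscle genes and 7 of 10 heart muscle genes read lower, with medians of -0.21 and -0.23, the direction of most fast muscle genes. On the DBA smoked array all 8 smooth muscle genes and 9 of 10 heart muscle genes read higher, with medians of 0.29 and 0.45, against the direction of the fast muscle genes. Their part in the result was not tested.

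The members varied together across arrays. The 45 pairs of the 10 genes had Pearson correlations over the 6 arrays of 0.736 to 0.994, with a median of 0.918. These values describe a set chosen for a common pattern and share the same 6 libraries. Tnnt3 followed the mean of the other members most closely (0.996) and Myoz1 least (0.855).

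The rest of the fast fibre program was looked at in genes outside the set. This list and those below were also chosen with earlier results of these data known, so their tests are not independent support. Of 12 other fast fibre genes 10 were measured, and 7 passed the filter. Myl1, the essential light chain of fast myosin, was lower in DBA than in C57 (log2 -2.59, SE 0.29, adjusted p = 0.00334 by limma) and lower in ICR (-2.86, SE 0.29, adjusted p = 0.0016 by limma), and kept both calls in 15 of 15 alternatives. It read 620 and 381 in C57, 94.7 and 72.9 in DBA, and 43.4 and 24.6 in ICR. Pygm, the glycogen phosphorylase of muscle, was also lower in ICR (-1.65, SE 0.26, adjusted p = 0.0171 by limma), a call lost without C57 control (adjusted p = 0.189), ICR control (0.143) or ICR smoked (0.062). The others did not pass. Eno3, a glycolytic enzyme of muscle, read 748 and 517 in C57 and 131 to 338 elsewhere, and Casq1, which stores calcium in fast fibres, 300 and 186 in C57 and 42.2 to 152 elsewhere. Over all probe sets tested 0.859% were called lower and 0.872% higher in DBA than in C57, and 1.37% lower and 0.926% higher in ICR than in C57. The list medians were -0.74 and -0.83. The heavy chain Myh4, of type IIb fibres, had probe sets that disagreed: the brighter showed no difference (log2 0.03 and -0.13), while the other read 113 and 91.8 in C57, 9.05 and 13.2 in DBA, and 0.318 and 0.496 in ICR. That probe set was picked out after its values were seen.

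Genes shared by all skeletal fibres had lower means in most cases outside C57. Of 37, 22 were measured and 13 tested, and their medians were log2 -0.53 in DBA and -0.74 in ICR against C57. None was called between DBA and C57. In ICR, Tpm2, a tropomyosin that covers actin (-1.59, SE 0.32, adjusted p = 0.0424 by limma), and Ldb3, a Z-disc scaffold (-1.47, SE 0.27, adjusted p = 0.0298 by limma), were lower, and both calls were lost without C57 control (adjusted p = 0.438 and 0.348), without ICR control (0.256 and 0.165) and without ICR smoked (0.0608 and 0.0647). Ryr1, the calcium release channel of skeletal muscle, fell short of the signal filter but had the members' order, at 64.0 and 45.3 in C57, 26.7 and 15.5 in DBA, and 13.1 and 5.91 in ICR. Cacng1, a subunit of the muscle calcium channel (-1.24 and -1.96), and Chrng, a subunit of the acetylcholine receptor (-1.45 and -1.23), did not pass the filter either. The other Chrng probe set, also below the filter, had smaller differences of -0.36 and -0.87. On the smoked arrays 9 of the 22 genes read lower in all 3 strains, among them Ryr1, where 9.44% of all probe sets did, and 0 were called by limma.

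Slow fibre genes went in both directions. Of 17, 16 were measured and 13 tested, and their medians were log2 -0.08 and -0.16 in DBA and ICR against C57. Myl3, a light chain of slow and ventricular myosin, was lower in DBA (-1.41, SE 0.26, adjusted p = 0.0305 by limma) and in ICR (-3.28, SE 0.26, adjusted p = 0.000999 by limma). It was also lower in ICR than in DBA (-1.87, adjusted p = 0.012 by limma), and its DBA to C57 call held in 8 of 15 alternatives and was lost with no scaling (adjusted p = 0.773) and without C57 control (0.335), C57 smoked (0.0543), DBA control (0.135), ICR control (0.0525) or ICR smoked (0.0523). Its ICR to DBA call was lost without ICR control (0.0912) and without ICR smoked (0.0913), against 0.657% of probe sets called lower and 0.51% called higher in that comparison. Mb, the oxygen store myoglobin, was lower in ICR than in C57 (-1.40, SE 0.29, adjusted p = 0.0455 by limma), and lost that call without C57 control (0.34), ICR control (0.184) or ICR smoked (0.114). Tnnt1, the slow form of the troponin T that Tnnt3 provides in fast fibres, had the opposite sign: it was higher in DBA than in C57 (1.85, SE 0.26, adjusted p = 0.00839 by limma) in 15 of 15 alternatives. Tnnt1 read 48.3 and 52.2 in C57, 195 and 308 in DBA, and 62.9 and 42.3 in ICR. Its other probe set differed by 0.60. Tnnc1, the slow counterpart of Tnnc2, read 200 and 168 in C57 and 362 and 542 in DBA but did not pass (adjusted p = 0.0705 by limma). The slow heavy chain Myh7 and the pump Atp2a2, which the heart also uses, were not called.

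Myogenic regulators and developmental myosins held no called gene. Of 14, 12 were measured and 5 tested, and the medians were log2 0.18 and 0.07 for DBA and ICR against C57. Myh8, the perinatal heavy chain, did not pass the filter but read 204 and 163 in C57, 31.8 and 3.10 in DBA, and 1.45 and 0.768 in ICR. As for Myh1, the DBA smoked array and both ICR arrays were below the constant. The other Myh8 probe set did not show the step, at 6.40 and 14.7 in C57, 17 and 18 in DBA, and 0.684 and 5.58 in ICR. Myf6, a regulator of mature fibres, read 46.2 and 26.3 in C57 and 1.24 to 17.5 elsewhere. In sum over these 4 lists, 60 genes were measured and 38 tested. Of these, 2 were lower and 1 higher in DBA than in C57 (0.859% and 0.872% of all probe sets tested). In ICR 6 were lower than in C57 (1.37%) and 1 was lower than in DBA (0.657%). Only the calls of Myl1, of Tnnt1 and of Myl3 in ICR against C57 held in 15 of 15 alternatives.

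**Figure D3:**
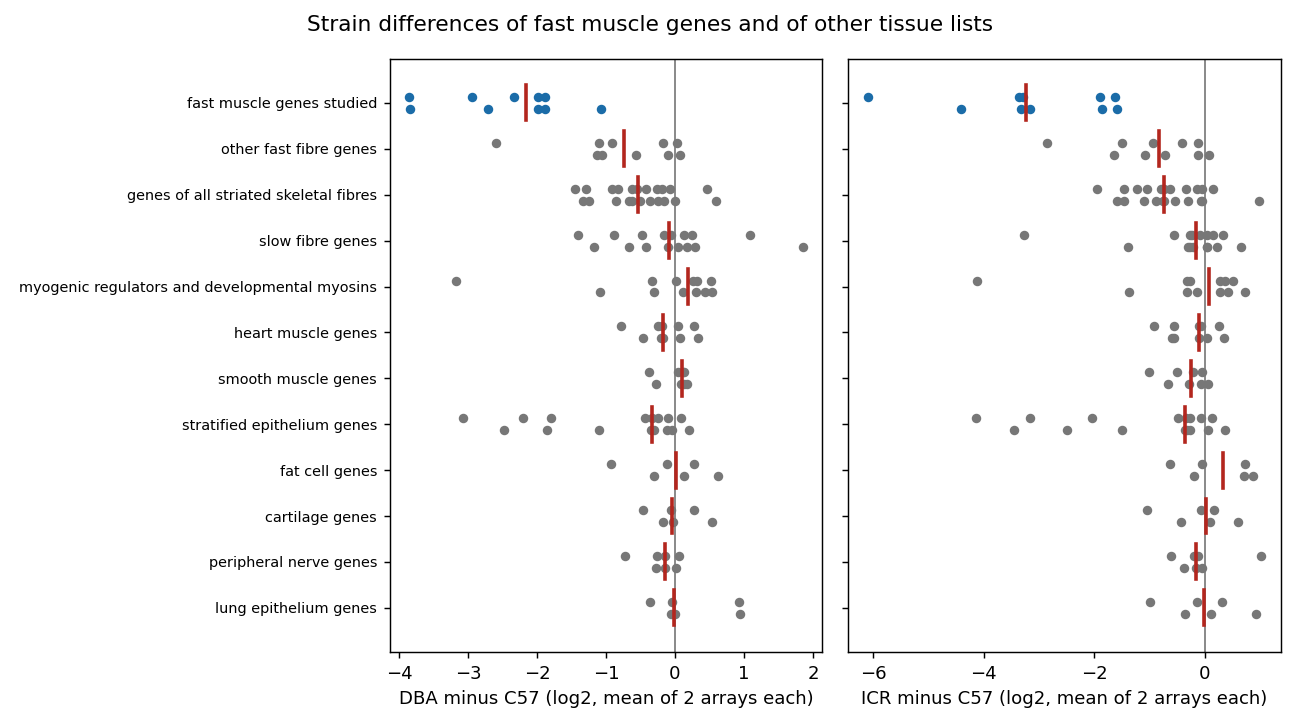
Differences of strain means (log2, 2 arrays per strain) for DBA minus C57 on the left and ICR minus C57 on the right, with a dot for each measured gene and a red bar at the list's median. The fast muscle genes studied have medians of -2.17 and -3.23, and those of the heart, smooth muscle and lung epithelium lists lie between -0.25 and 0.10.

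Heart and smooth muscle genes held no called strain difference. None of the 9 heart muscle genes tested was called in any of the 3 strain comparisons, and the list medians were log2 -0.18 for DBA minus C57 and -0.10 for ICR minus C57. Their summed normalized intensity, over 10 measured genes, was 5828 and 4871 in C57, 3977 and 5591 in DBA, and 4716 and 4269 in ICR. The same sum over the 10 fast muscle genes was 5298 and 3712, 822 and 292, and 227 and 250. Heart genes were ranked by the largest difference between any pair of strain means. Highest were Nppa, the atrial hormone precursor (log2 -0.20 in DBA and -0.93 in ICR against C57), and Myl4, an atrial light chain (0.34 and -0.56). Tnnt2, cardiac troponin T (-0.78 and -0.59), Ryr2, the cardiac calcium release channel (-0.25 and 0.34), and Myl7, another atrial light chain (-0.17 and -0.56), followed. For Myl4 and Ryr2 the largest difference was ICR minus DBA, at -0.9 and 0.59. None of the 8 smooth muscle genes tested was called either, with medians of 0.10 and -0.25. In ICR the contractile genes Cnn1 (-1.01, adjusted p = 0.0862 by limma), Myh11 (-0.67), Actg2 (-0.50), Tagln (-0.29) and Acta2 (-0.22) all had lower means than in C57, without passing the test. Of the 5 lung epithelium genes tested, Pdpn, a marker of alveolar type I cells, had differences of 0.93 and 0.30 that did not pass, and Sftpb, surfactant protein B, was lower in ICR than in C57 (-1, SE 0.19, adjusted p = 0.0348 by limma), a call lost without C57 smoked (0.134), ICR control (0.0565) or ICR smoked (0.0684).

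Some genes of stratified epithelium, which lines the oesophagus and is also found in skin and at other sites, moved with the fast muscle genes between strains but not within the C57 pair. Of 21, 16 were measured and 7 tested, and the medians were log2 -0.34 in DBA and -0.35 in ICR against C57. Both C57 arrays stood above both DBA arrays in 7 of the 16 genes (26.3% of all probe sets). They stood above both ICR arrays in 7 (23.4%), so in each comparison most of the list did not show the step. Krt13, a keratin of non-cornified stratified epithelium, was lower in ICR than in C57 (-3.45, SE 0.54, adjusted p = 0.0157 by limma), as was Mt4, a metallothionein of such epithelia (-4.14, SE 0.64, adjusted p = 0.0151 by limma). Both calls were lost without ICR control (adjusted p = 0.211 and 0.23) and without ICR smoked (0.0793 and 0.0684), and that of Mt4 also with a robust variance prior (0.0516). Krt13 read 160 and 413 in C57, 72.5 and 26.9 in DBA, and 10.8 and 7.18 in ICR. Mt4 read 219 and 312, 74.6 and 4.07, and 4.94 and 2.44. Krt13 and Mt4 passed the filter mainly through their C57 signals. Normalized means in C57, DBA and ICR were log2 7.85, 5.37 and 4.4 for Krt13 and 7.86, 4.78 and 3.72 for Mt4. The DBA smoked value and both ICR values of Mt4 lay below the added constant. The calls of Krt13 and Mt4 therefore rest in part on weak signals. On the C57 smoked array both stood above the C57 control array, where 8 of 10 fast muscle genes stood below it. Krt4, the partner of Krt13, Krtdap and Crct1 had that order too, with smoked minus control differences in C57 of 1.11, 1.72 and 2.96, and in DBA of -1.48, -1.77 and -1.64. Crct1 did not pass the filter, and its other probe set was at -0.05 in C57 and 0.19 in DBA. Keratins of the basal layer were near the bottom of the scale: Krt14 read 1.80 to 8.81, Krt5 1.55 to 14.5 and Krt15 1.26 to 4.35. Summed over the 16 genes, normalized intensity was 1457 and 2674 in C57, 1088 and 771 in DBA, and 706 and 873 in ICR. The part of this tissue in the result was not tested.

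**Figure D4:**
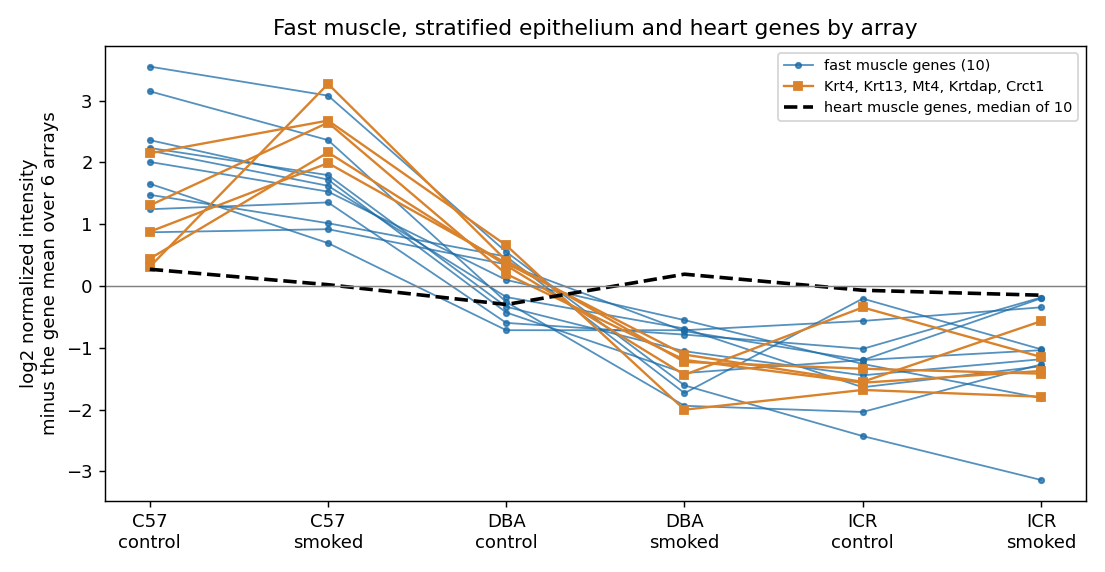
Log2 normalized intensity on each array minus the gene's mean over the 6 arrays, with thin blue lines for the 10 fast muscle genes, orange lines for the 5 stratified epithelium genes with the largest strain differences, and a dashed black line for the median of 10 heart muscle genes. Lines join the values of a gene and stand for no order of arrays. All orange lines are higher at C57 smoked than at C57 control while 8 of the 10 blue lines are lower, and the heart median stays between -0.30 and 0.27.

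Lists for other tissues near the lung had no called gene in any strain comparison or for smoke. Fat cell genes (6 measured, 3 tested) had medians of log2 0.01 and 0.33 for DBA and ICR against C57, with Adipoq, the fat cell hormone adiponectin, at -0.30 and 0.72, cartilage genes (6 measured, 2 tested) -0.05 and 0.01, and peripheral nerve genes (7 measured, 3 tested) -0.15 and -0.17, with Gap43, a growth cone protein, at 0.06 and 1.01. The cartilage gene Chad read 455 and 255 in C57, 294 and 368 in DBA, and 98.4 and 80.3 in ICR. Summed normalized intensity of the cartilage list was 459 on C57 control and 212 to 328 on the 5 other arrays.

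Likeness to the fast muscle pattern was ranked over 249 genes outside the set that passed the filter on low signal and had a range of at least 2 on the log2 scale. Each gene was taken at its best-correlated probe set within these limits, which need not be its brightest. The 10 genes with the highest Pearson correlation over 6 arrays with the mean of the members were Myl1 (0.991), Mt4 (0.963), Mt1 (0.961), Pttg1 (0.956), Nnmt (0.948), Mir686 (0.948), Abcd3 (0.942), Anxa8 (0.935), Krt13 (0.935) and Ctsc (0.934). Some muscle probe sets outside these limits correlated above Mt4: Myh8 (0.995) and the dimmer Myh4 probe set (0.968) failed the signal filter, Ryr1 (0.985) failed both limits and Xirp1 (0.988), which links actin at muscle cell junctions, had too small a range. These were picked out after their values were seen. Of the 10, Myl1 came from a muscle list, and Mt4 and Krt13 came from the stratified epithelium list. Mt1, a metallothionein made in many tissues, read 1336 and 832 in C57, 434 and 485 in DBA, and 182 and 98.3 in ICR. Pttg1, the securin of dividing cells, read 828 and 646 in C57 and 37.6 to 191 elsewhere. For Ctsc, a lysosomal protease, the probe sets disagreed: the matching one read 348 and 327 in C57 and 5.17 to 27.7 elsewhere, while the brightest correlated at -0.727. With 6 arrays in 3 strains, any probe set that is high in C57, between in DBA and low in ICR correlates in this way.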

How the data were processed

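The deposited table holds 1 intensity per probe set and array on a linear scale; how the authors summarised and scaled it is not stated in the labels. Per the labels' protocols, Trizol-extracted RNA was reverse-transcribed with an oligo(dT) primer and labelled as biotin cRNA. The deposited intensity plus 8.05 (the 20th percentile of the table) was put on a log2 scale and quantile normalized. The 66 control probe sets were then dropped. Of the other 12422, those whose mean exceeded the 40th percentile, 7453 in all, were tested.

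Probe sets with 1 symbol in the platform annotation (10833, while 396 had several) were used. The brightest stood for a gene, except in the ranking of likeness, where the best-correlated one did. limma 3.58.1 in R 4.3.3 fitted strain plus smoke to all 6 arrays (2 residual degrees of freedom, mean trend, 2-sided, Benjamini-Hochberg over all tested; called at adjusted p below 0.05), after a trial on simulated data. The p-values measure the spread between these arrays, and nothing says that it covers more than 1 mouse per group. With 1 array per strain and exposure, the residual spread is the disagreement between strains in the smoked minus control difference. Variation between mice of a group was not measured. Members and the 11 other gene lists were chosen with earlier results of these data known. Named genes were all members, genes from the up to 5 largest strain and 3 largest smoke differences of each list, all called list genes, and the 10 most like the members; Actc1, Myh7, Atp2a2, Scgb1a1, Krt5, Krt15, Sprr3 and Xirp1 were added after their values were seen. Alternatives were other constants, filters, scalings, variance priors, no strain term, the dimmer probe set, and each array or pair left out. Plots used matplotlib 3.10.9. The number of arrays limits precision.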

Additional observations from a re-analysis of the deposited data

Results flagged for a closer look

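The following genes moved at least 2-fold one way on the smoked array of a strain and at least 2-fold the opposite way in another strain (log2, smoked minus control). With 1 pair per strain these differences were not tested. Of the fast muscle genes, Mylpf was at -1.08 in DBA and 1 in ICR. Its deposited ICR intensities, before scaling, were 17.0 on the control and 21.1 on the smoked array. The other Mylpf probe set was at -0.43 in DBA and 0 in ICR and did not meet this. Of the stratified epithelium genes, 5 met this. Krt4 was at 1.11 in C57 and -1.48 in DBA. Krt13 was at 1.34 and -1.39, Krtdap at 1.72 and -1.77, and Crct1 at 2.96 and -1.64 in the same strains. Sprr3, a cornified envelope protein, was at 1.88 in C57 and -1.16 in ICR. Myog, a myogenic regulator, was at 1.12 in C57 and -1.77 in DBA, and Col2a1, a cartilage collagen, at -1.16 in DBA and 1.01 in ICR. The other probe set of Crct1 was at -0.05 in C57 and 0.19 in DBA and that of Krt4 at 1.03 and -0.41, so neither met this. Of the other Krt13 probe sets, 1 was at 1.20 and -1.35 and 1 at -0.85 and -0.52. Myog, Col2a1, Sprr3 and Crct1 did not pass the filter on low signal.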

How the results depend on the processing

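The replicate number could not serve as a block, because it is 1 in every group. The smoke effect was paired by strain: the strain term sets each smoked array against its strain's control. The medians over members kept their sign for DBA and ICR against C57 and for smoke in every alternative run. For DBA against C57 the median was -2.64 and -1.80 with constants of 1 and 32, -2.04 with no scaling, -2.35 with scaling to a common median and -1.94 with the dimmer probe sets (-2.60 to -2.11 with arrays left out). For ICR against C57 it was -2.38 with a constant of 32, -3.79 with no scaling and -1.88 with the dimmer probe sets (-3.48 to -2.79). For ICR against DBA it ran from -1.16 to 0.26 with arrays left out, so its sign rested on the DBA control and ICR control arrays. No scaling shifted the median of all probe sets by -0.17 for smoke, 0.16 for DBA and -0.52 for ICR against C57, and -0.74 for ICR against DBA. Scaling to a common median shifted them by -0.15, 0.08 and 0.17 for the strain comparisons in the same order.

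These member genes changed sign. For smoke, Ckm was 0.11 without the C57 pair, Tnni2 -0.04 without the ICR pair and Tnnc2 0.18 with its dimmer probe set. Mylpf for smoke was 0.02 with a constant of 1 and -0.51 to 0.53 with arrays left out. For ICR against DBA, Myoz1 was -0.07 with a constant of 32, and Myoz1, Tnni2 and Ckm were -0.67, -0.38 and -0.47 with no scaling. With arrays left out these 3 ran from -0.77 to 0.80, -0.34 to 0.53 and -0.09 to 0.61, and Tnnc2, Myh1 and Mylpf from -0.69 to 0.28, -1.56 to 0.45 and -1.32 to 0.29. The dimmer probe sets gave 0.27 for Actn3 with smoke, and for DBA and ICR against C57 0.16 and 0.12 for Tnnc2 and 0.10 and 1.23 for Ckm.

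Probe sets called numbered 3 for smoke and, between strains, 129 (DBA to C57), 171 (ICR to C57) and 87 (ICR to DBA). Without the filter they were 1, 66, 44 and 38, and the called list genes other than Myl1, Tnnt1 and, in both ICR comparisons, Myl3 lost their calls (highest adjusted p by limma 0.139, for Sftpb). Tpm2, Mb and Sftpb also lost theirs with no mean trend (0.0631, 0.0733 and 0.12). For smoke the count was 1 with no mean trend or with a common median, 0 with no strain term, and 0 to 16 with arrays or pairs left out. With no scaling it was 85 for DBA against C57 (64 higher, 21 lower, against 65 and 64) and 261 for ICR against DBA (4 and 257, against 38 and 49), and for ICR against C57 7 were higher and 138 lower, against 69 and 102. A common median gave 54 higher and 85 lower for DBA and 50 and 175 for ICR against C57. With arrays or pairs left out the strain counts ran from 102 to 298, 32 to 517 and 12 to 220. The cause was not tested.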
